A study of Saccharomyces cerevisiae with 4 samples.

Results

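Ergosterol is the main sterol of yeast membranes, and 31 genes of its synthesis and regulation were followed here in 4 cultures of Saccharomyces cerevisiae. Members were chosen by gene symbol: 23 enzymes and scaffolds of the pathway from acetyl-CoA to ergosterol, 2 electron donors, 2 transcriptional activators, 2 esterifying enzymes and 2 genes of sterol uptake. They were 31 of the 5449 yeast genes named on the Affymetrix Yeast Genome 2.0 array. Each had exactly 1 probe set, all 31 lay above background, and 0 had a probe set identifier marked as shared between transcripts. All cultures were BY4741, a haploid of mating type a with the deletions ura3∆0, leu2∆0, his3∆1 and also met15∆0, grown at 30°C in synthetic medium lacking leucine to mid-log phase. In 2 control cultures the strain carried the LEU2 plasmid p425-GPD, an empty vector, and in the other 2 it carried p425-GPD with an RNase H1 insert behind the constitutive GPD promoter. RNase H1 cuts RNA that is paired with DNA, and the comparison asks which sterol transcripts differ when its gene is on the plasmid. Both groups share the strain's marker deletions and the plasmid backbone, and the labels do not give the species of the insert. As background, strains derived from S288C, such as BY4741, carry a transposon insertion in HAP1, which encodes a haem-dependent activator of several sterol genes.

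Sterol synthesis starts with the mevalonate section, which joins acetyl-CoA units, reduces the product to mevalonate and turns it into farnesyl pyrophosphate. Squalene is then made, oxidised and closed into lanosterol, and the late steps remove methyl groups, shift and add double bonds and methylate the side chain. Several late enzymes hold iron, either in a haem group (the cytochromes P450 Erg11 and Erg5) or as a di-iron centre (Erg25 and Erg3), and use molecular oxygen. In this yeast Upc2 and Ecm22 are activators of transcription of many of these genes.

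Signals are MAS5 values on a linear scale, compared as log2 differences between arrays labelled RNase H1 and control arrays, with limma and Benjamini-Hochberg adjustment over 5470 tested probe sets (threshold 0.05). Signal sums per array lay between 6889760 and 7097920. The yeast RNase H1 gene, RNH1, gave signals of 320 and 292 in the controls against 303 and 307 in the other group (log2 difference −0.0044 ± 0.18 SE, n = 2 against 2), so that the labels could not be checked on it. Replicates were less alike in the group labelled RNase H1, where 28.3% of tested probe sets were over 1.5-fold apart, than among the controls, where 3.33% were. Ratios of 3' to 5' signal for actin, a measure of RNA quality and amplification, were 1.40 and 1.41 in the controls and 1.30 and 1.47 in the other arrays with a first set of control probes, and 1.34 in both controls against 1.48 and 1.68 with a second. The 7 markers of mating type a were all detected, with summed signals of 27588 and 27827 in the controls and of 14179 and 13322 in the other arrays. All 7 were lower with groups that did not overlap (100%, against 30.8% of all tested probe sets). With limma 3 passed as lower (42.9%, against 0.347% of all): ASG7 (7.26-fold, adjusted p = 0.0428), BAR1 (5.80-fold, adjusted p = 0.0188) and STE2 (1.92-fold, adjusted p = 0.0161). AGA2 was 4.42-fold lower and did not pass (adjusted p = 0.064). The 4 markers of mating type alpha summed to 438 and 490 in the controls and to 362 and 675 in the others, and 0 of the 11 marker probe sets were at 0. Of these 4, STE3, the a-factor receptor gene, had signals of 33.6 and 41.5 in the controls and of 138 and 75.6 in the others. It was 2.73-fold higher and did not pass with limma (unadjusted p = 0.0159, adjusted p = 0.133). SAG1 gave most of the sum, with 374 and 405 against 499 and 263. SAG1, MF(ALPHA)1 and MF(ALPHA)2 had log2 differences below 0 (−0.10, −0.24 and −0.28), with groups that overlapped. The median log2 difference of the 4 was −0.17. The part of RNA quality and of these marker levels in the results below was not tested.

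Of the 23 genes of the pathway itself, 19 had lower mean log2 signals in the cultures labelled RNase H1 (17 after cyclic loess scaling, which turned ERG11 and ERG25), by up to 2.03-fold, and 1 of the 31 members passed the test. That gene was ERG13, which makes hydroxymethylglutaryl-CoA and fell 1.64-fold (log2 −0.71 ± 0.09 SE, adjusted p = 0.0493, n = 2 against 2). No member passed as higher with limma. Among all 5470 tested probe sets, 2810 had a log2 difference below 0 and 2660 one above 0. Of all tested probe sets 1.48% passed, 0.347% as lower and 1.13% as higher. At an unadjusted p under 0.05 stood 13 members (23.7% of all tested probe sets did), of which 12 lay lower (38.7%, against 12.7% of all tested probe sets) and 1 higher (3.23%, against 11% of all). The groups did not overlap for 27 members (58.8% of all tested probe sets had such groups), 19 of them lower in the arrays labelled RNase H1 (61.3%, against 30.8% of all tested probe sets) and 8 higher (25.8%, against 28% of all). These shares compare sets of unlike precision, since the median residual SD was 0.07 for the members and 0.19 for all tested probe sets. At an equal difference, a smaller SD makes a low p or groups apart more likely. The median log2 difference was −0.28 over the members and −0.02 over all tested probe sets. The members' median was −0.16 after cyclic loess scaling and −0.15 without array 2 labelled RNase H1. In RNA from whole cultures, fewer cells with a transcript and less of it per cell cannot be told apart.

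**Figure D1:**
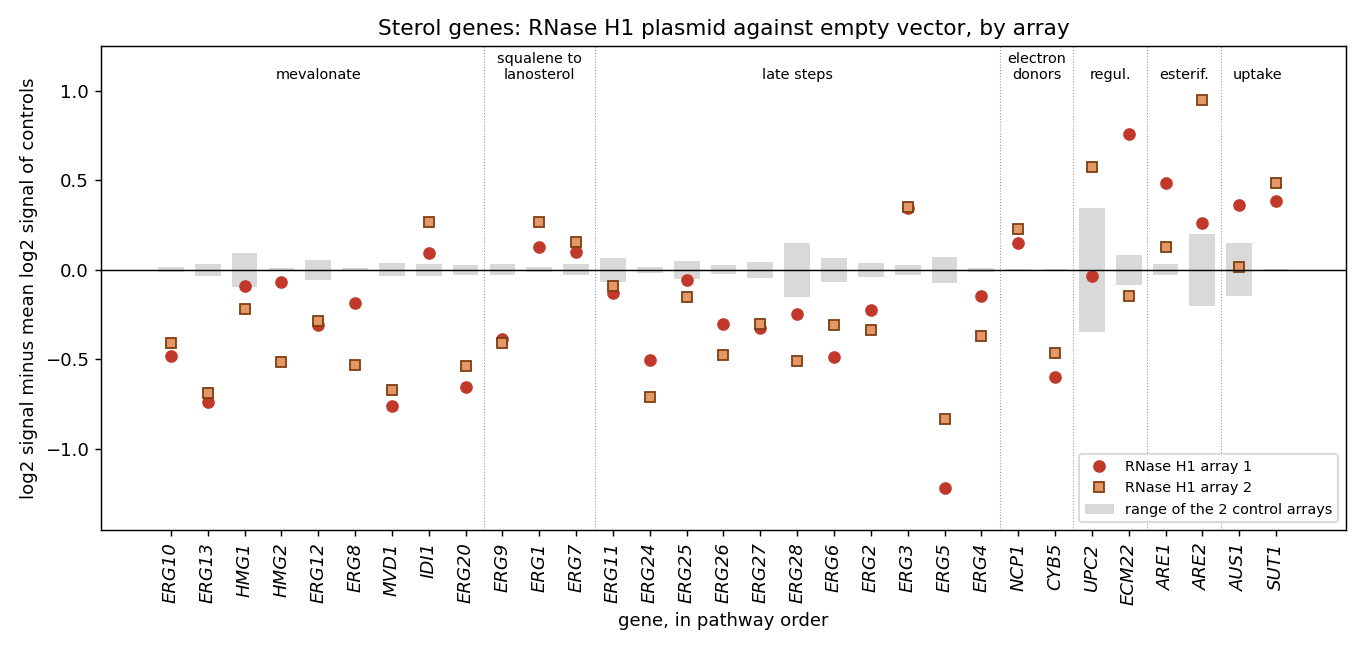
Log2 signal of each member in the 2 arrays labelled RNase H1, minus the mean log2 signal of the 2 controls, in pathway order (vertical axis, log2 units); circles are array 1, squares array 2, and grey bars the range of the controls. Both arrays lie below the controls' mean for 8 of 9 mevalonate genes, for 10 of 11 late genes (ERG11 and ERG25 turn after cyclic loess scaling, ERG25 also after quantile scaling), and for ERG9 and CYB5. Both lie above it for IDI1, ERG1, ERG7, ERG3, NCP1, ARE1, ARE2, AUS1 and SUT1. For UPC2 and ECM22 the arrays lie on opposite sides of it.

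In the mevalonate section 8 of 9 genes had a log2 difference below 0, as 2810 of all 5470 tested probe sets did. The section's median was −0.36, and 1 gene passed the test (11.1%, against a background of 0.347% for lower calls). ERG13 had signals of 3698 and 3868 in the controls and of 2273 and 2347 in the other group. The groups were apart and each pair was close together, yet the adjusted p lay near the threshold: 10 of 16 other settings ended the call (adjusted p up to 0.427), among them leaving out either control array (0.301 and 0.427). The log2 difference stayed between −0.75 and −0.61 in all 16.

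Next by adjusted p were ERG20 and MVD1. MVD1, the mevalonate pyrophosphate decarboxylase gene, had signals of 3140 and 3302 in the controls and of 1900 and 2027 with the RNase H1 plasmid, a difference of −0.71 ± 0.10 that missed the threshold (adjusted p = 0.0589). ERG20, whose enzyme makes farnesyl pyrophosphate, had signals of 5828 and 6046 against 3773 and 4090 (−0.60 ± 0.08, adjusted p = 0.0519). For both genes each array labelled RNase H1 lay below each control by more than the spread within either pair. ERG10, the acetoacetyl-CoA thiolase gene that opens the pathway, averaged 5537 in the controls and 4068 in the other group (−0.44 ± 0.07, adjusted p = 0.071).

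The section's regulated step, hydroxymethylglutaryl-CoA reductase, is encoded by HMG1 and HMG2, which lay closer to the controls. HMG1, the isoenzyme gene used mainly in aerobic growth, had signals of 1060 and 930 against 933 and 854, so its groups overlapped (−0.15 ± 0.16, adjusted p = 0.58). HMG2, the isoenzyme gene favoured when oxygen is short, had 739 and 748 against 711 and 520, and the difference came mostly from array 2 (−0.29 ± 0.21, adjusted p = 0.441). Whether the 2 probe sets share signal between these related genes was not tested. The kinase genes ERG12 (−0.29 ± 0.14) and ERG8 (−0.36 ± 0.16) did not pass either. IDI1, the isopentenyl pyrophosphate isomerase gene, was the exception in direction, with signals of 2471 and 2597 in the controls and of 2700 and 3055 in the other arrays (0.18 ± 0.11, adjusted p = 0.371).

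The 3 genes between farnesyl pyrophosphate and lanosterol did not share a direction, and none passed with limma (1, or 33.3%, was lower at an unadjusted p under 0.05, against 12.7% of all tested probe sets, and 0 were higher, against 11%). ERG9, the squalene synthase gene at the branch towards sterols, averaged 2435 in the controls and 1847 in the arrays labelled RNase H1 (−0.40 ± 0.10, adjusted p = 0.125). ERG1, whose squalene epoxidase uses oxygen with a flavin and no iron, had signals of 4034 and 4114 against 4457 and 4903 (0.20 ± 0.08, adjusted p = 0.237). ERG7, the lanosterol synthase gene, stood at 1143 and 1096 against 1198 and 1248 (0.13 ± 0.13, adjusted p = 0.587). Its 95% interval ran from −0.22 to 0.47.

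Late genes numbered 11, of which 10 had a log2 difference below 0 (9 after quantile and 8 after cyclic loess scaling). Of all 5470 tested probe sets, 2810 did. The late median was −0.31, and 0 late genes passed with limma. At an unadjusted p under 0.05, 6 were lower (54.5%, against 12.7% of all tested probe sets) and 1 higher (9.09%, against 11% of all). The 4 genes of iron-using oxygenases spread the widest. ERG5, the cytochrome P450 that desaturates the sterol side chain, had signals of 1467 and 1627 in the controls and of 665 and 869 in the arrays labelled RNase H1. This 2.03-fold lower level was the largest difference among the 31 members (log2 −1.02 ± 0.19, 95% interval −1.51 to −0.53), but it did not pass the threshold (adjusted p = 0.0843). ERG3, the di-iron desaturase of the sterol ring, pointed the other way, with 2037 and 1959 against 2536 and 2545. Its log2 difference was 0.35 ± 0.10 (adjusted p = 0.152), and its values in the arrays labelled RNase H1 were nearly equal.

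The other members of this oxygenase group stayed close to the controls. ERG11, the lanosterol demethylase gene and target of azole drugs, had signals of 5002 and 4558 in the controls and of 4364 and 4491 in the other arrays (−0.11 ± 0.08, 95% interval −0.32 to 0.11). ERG25, the di-iron methyl oxidase gene, had 5191 and 4833 against 4808 and 4511 (−0.11 ± 0.08, 95% interval −0.31 to 0.10). For ERG11 and ERG25 the gap between the groups' means was about that between the 2 controls. Both turned to the other side of 0 after cyclic loess scaling, and ERG25 also after quantile scaling, so no direction is given for them.

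All 7 late genes without a catalytic iron had lower signals in the cultures labelled RNase H1, with log2 differences between −0.61 and −0.26, and their groups did not overlap (100%, against 30.8% of all tested probe sets that were apart and lower). ERG24, the reductase that follows Erg11, had signals of 2142 and 2091 against 1495 and 1292 (−0.61 ± 0.13, adjusted p = 0.0992). ERG6, the methyltransferase gene that gives ergosterol its side-chain methyl group, averaged 5868 and 4454 (−0.40 ± 0.10, adjusted p = 0.115). In the complex that removes methyl groups together with Erg25, the dehydrogenase gene ERG26 stood at −0.39 ± 0.13, the ketoreductase gene ERG27 at −0.31 ± 0.11 and the scaffold gene ERG28 at −0.38 ± 0.19, all as log2 differences that did not pass. ERG2, the sterol isomerase gene (−0.28 ± 0.08), and ERG4, the last reductase (−0.26 ± 0.11), lay nearest the controls.

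Electron donors of these oxygenases differed in direction. NCP1, the reductase that feeds the cytochromes P450, had signals of 2707 and 2689 in the controls and of 2996 and 3165 in the arrays labelled RNase H1 (0.19 ± 0.09, adjusted p = 0.278). CYB5, the haem protein cytochrome b5, which passes electrons in several late steps, had 1241 and 1236 against 817 and 899. That is 1.45-fold lower (−0.53 ± 0.14, adjusted p = 0.128), with groups that did not overlap and no call.

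**Figure D2:**
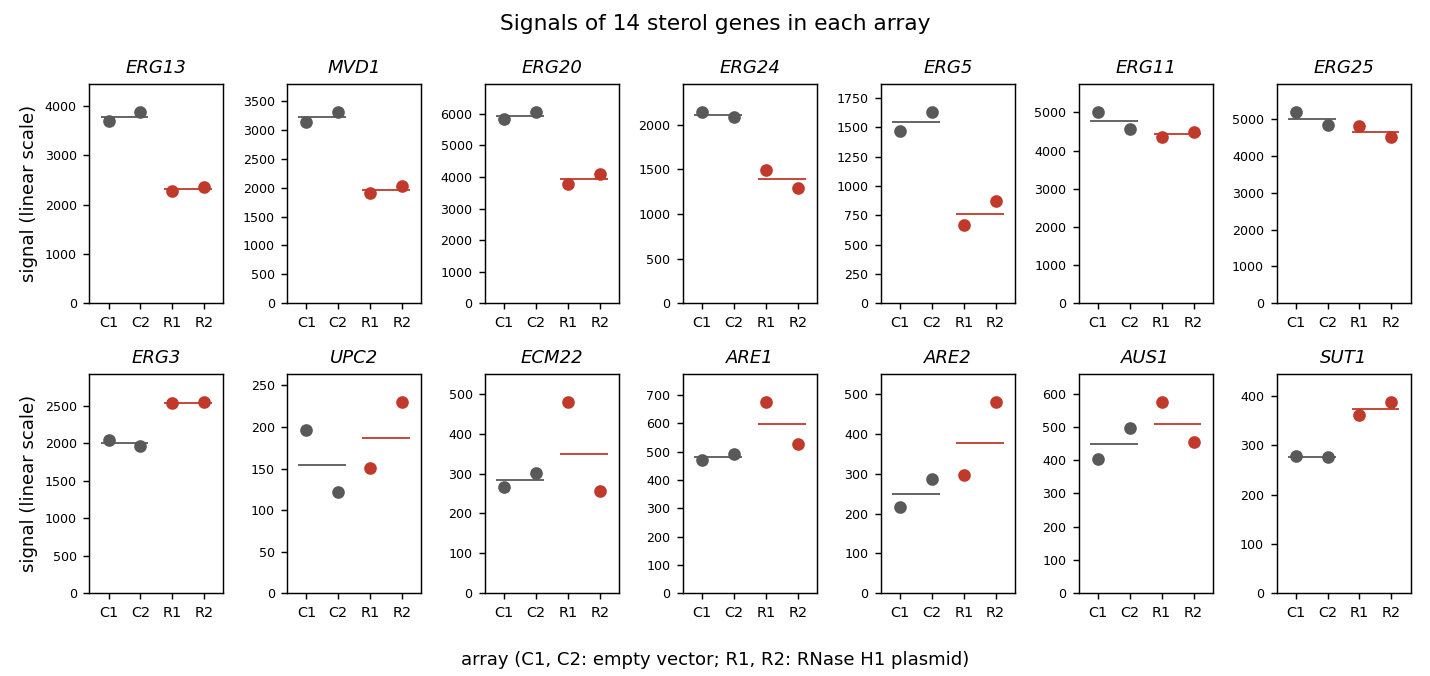
Signals (linear scale, each vertical axis from 0) of 14 members in the 4 arrays: C1 and C2 carry the empty vector, R1 and R2 the RNase H1 plasmid, and lines mark each group's geometric mean. ERG13, MVD1, ERG20, ERG24 and ERG5 are lower in R1 and R2 than in both controls. ERG11 and ERG25 are slightly lower on these signals, and turn after cyclic loess scaling. ERG3, SUT1, ARE1 and ARE2 are higher, and the groups of UPC2, ECM22 and AUS1 overlap.

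Neither activator gene set the groups apart. UPC2 had signals of 196 and 121 in the controls and of 151 and 230 in the arrays labelled RNase H1 (log2 difference 0.27 ± 0.36, 95% interval −0.67 to 1.21). ECM22 had 267 and 300 against 479 and 256, so that array 1 was high and array 2 below both controls (0.31 ± 0.34, 95% interval −0.59 to 1.21). UPC2 was the only member over 1.5-fold apart between the controls. It turned to the other side of 0 without control array 2 and without array 2 labelled RNase H1, and ECM22 did so without array 1 of that pair.

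Storage and uptake genes all had log2 differences above 0, as 2660 of all 5470 tested probe sets did. None of these genes passed with limma (0 were past an unadjusted p of 0.05, as 23.7% of all tested probe sets were). ARE2, which encodes the sterol acyltransferase that stores most ergosterol as esters, had signals of 216 and 286 in the controls and of 298 and 480 in the other arrays, a difference of 0.60 ± 0.31 (adjusted p = 0.303) that was 0.26 from array 1 and 0.95 from array 2. Its paralog ARE1 had 472 and 493 against 675 and 527, with the larger value in array 1 (0.31 ± 0.20, adjusted p = 0.391). SUT1, a transcription factor that promotes sterol uptake, was even within each pair, at 278 and 277 against 362 and 388 (0.44 ± 0.18, adjusted p = 0.224). AUS1, a transporter that takes up sterols when oxygen is short, had 404 and 496 against 574 and 453, which overlap (0.19 ± 0.22, adjusted p = 0.624).

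By section, the medians over both arrays lay below the controls for the mevalonate genes (−0.36) and for the late genes (−0.31), a difference of −0.04. Of the arrays labelled RNase H1, array 1 had a mevalonate median of −0.31 and array 2 one of −0.52, beside late medians of −0.24 and −0.34, so that the difference between these medians was −0.06 in array 1 and −0.18 in array 2. The median of the 4 iron-using oxygenases was −0.09 in array 1 and −0.12 in array 2, above the −0.30 and −0.37 of the other 7 late genes; over both arrays it was −0.11. This last median was 0.03 after cyclic loess and −0.0077 after quantile scaling, −0.05 without control array 1 and −0.17 without control array 2. Within the 4, however, log2 differences ran from −1.02 for ERG5 to 0.35 for ERG3, a range wider than any gap between sections. These medians rest on members that share each array and carry no test. The pathway enzymes were steady between replicates: 0 of 23 were over 1.5-fold apart between the arrays labelled RNase H1, against 28.3% of all tested probe sets. Their control means ran from 744 to 5936. Among all 31 members 3 were that far apart (9.68%): UPC2, ECM22 and ARE2, with lower control means of 154, 283 and 249. The part of signal level in this steadiness was not tested.

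Other genes of sterol handling, 65 in 7 lists, gave 1 call, 1.52% of their 66 probe sets against a background of 1.13% for higher calls. PRY1, a secreted protein that binds and exports acetylated sterols, rose from signals of 1748 and 1848 to 3810 and 3993 (2.17-fold, log2 1.12 ± 0.10, adjusted p = 0.0242). It did not pass without an intensity trend in the variance model (adjusted p = 0.0973). PRY1 was the only one of 22 genes of sterol transport and export to pass (4.55%, against 1.13% of all as higher), and the list's median was −0.14. At an unadjusted p under 0.05, 5 of the 22 were lower (22.7%, against 12.7% of all tested probe sets) and 2 higher (9.09%, against 11%). The groups were apart for 10 as lower (45.5%, against 30.8% of all) and for 4 as higher (18.2%, against 28%).

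Of the 3 steryl ester hydrolase genes, none passed with limma (1, or 33.3%, was higher at an unadjusted p under 0.05, against 11% of all tested probe sets). YEH1 had signals of 260 and 271 against 439 and 558 (0.90 ± 0.20, adjusted p = 0.103), and TGL1 had 785 and 806 against 657 and 498 (−0.48 ± 0.20, adjusted p = 0.233). Values for hypoxic genes varied between the arrays labelled RNase H1. Of the following lists, 5 of 9 and 4 of 8 probe sets were over 1.5-fold apart (55.6% and 50%, against 28.3% of all tested probe sets). The median of the cell wall list was 0.58 in array 1 and −0.30 in array 2. That of the haem and oxygen list was 0.15 in array 1 and −0.31 in array 2. Among 8 genes of hypoxic cell wall proteins with 9 probe sets, 0 passed with limma, 2 being higher at an unadjusted p under 0.05 (22.2% of probe sets, against 11% of all). These were PAU24, also known as DAN3, at 1.01 ± 0.34, whose probe set is marked as cross-hybridising within its family, and TIR2 at 0.71 ± 0.25. Among 8 genes that yeast represses through haem and oxygen or that act in this repression, 0 passed and 1 was higher at an unadjusted p under 0.05 (12.5%, near the 11% of all). This was ROX1, the haem-induced repressor of hypoxic genes, with 782 and 695 against 1352 and 1880 (1.11 ± 0.21, adjusted p = 0.0857). COX5B, a hypoxic subunit of cytochrome oxidase, stood at −0.72 ± 0.28 (adjusted p = 0.211).

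Among 13 genes that regulate sterol enzymes or their degradation, 0 passed with limma and 2 were lower at an unadjusted p under 0.05, a share of 15.4% that is near the 12.7% of all tested probe sets. The smallest p-values were those of 2 genes that did not pass. UBC7, a ubiquitin-conjugating enzyme in the degradation of Hmg2, stood at −0.45 ± 0.15, and NSG1, which stabilises Hmg2, at −0.36 ± 0.12. Of 9 genes on other branches from the isoprenoid precursors, 0 passed, with 1 lower and 1 higher at an unadjusted p under 0.05 (11.1% each, near the 12.7% and 11% of all tested probe sets). The smallest p-values here, also not past the threshold, were those of NUS1 and MOD5. NUS1, a subunit for dolichol synthesis, was at −0.75 ± 0.24, and MOD5, which modifies transfer RNA with isopentenyl groups, at 0.98 ± 0.33. The 3 other di-iron lipid oxygenases had a median of 0.36, and 0 passed, with 1 higher at an unadjusted p under 0.05 (33.3%, against 11% of all). SCS7, the sphingolipid hydroxylase gene, had 1990 and 2129 against 2579 and 2624 (0.34 ± 0.10, adjusted p = 0.161), and OLE1, the fatty acid desaturase gene, had 2985 and 2447 against 3240 and 6885, so that array 2 alone was far above the controls (0.81 ± 0.37, adjusted p = 0.266).

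**Figure D3:**
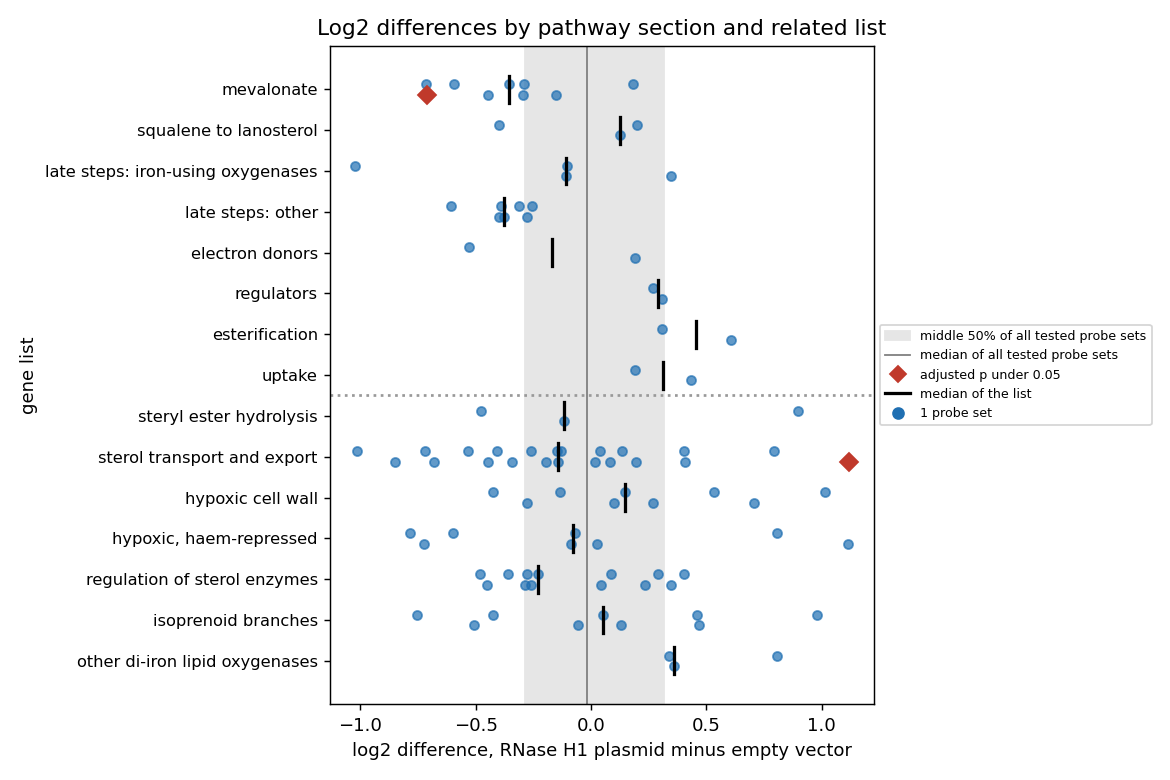
Log2 differences (horizontal axis, RNase H1 plasmid minus empty vector) of the members by section, above the dotted line, and of the related lists below it. Each point is a probe set, offset vertically for legibility, black bars are list medians, diamonds mark ERG13 and PRY1, which passed the test, and the grey band holds the middle 50% of all tested probe sets.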

How the data were processed

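Per the submitters' processing notes, the deposited signals of 4 arrays, on a linear intensity scale, came from MAS5 in Affymetrix Expression Console; no source used here gives the scaling target. Each array was grouped by the plasmid in its title, and 0 other sample columns were present. Platform annotation and the R64 gene table named 5498 of 10928 probe sets with 1 S. cerevisiae gene and updated 12 symbols. Probe sets had to exceed, in mean log2 signal, the 75th percentile of the 1746 S. pombe probe sets, a signal of 2.13, which left 5470. Log2 signals were fitted in R 4.3.3 by limma's lmFit and eBayes (version 3.58.1) with a variance trend on intensity; tests were two-sided and adjusted by Benjamini-Hochberg. Errors are standard errors of that fit. The steps were tested on simulated data in which both groups had the same SD for each probe set. In the data the median SD over all tested probe sets was 0.08 in the controls and 0.24 in the arrays labelled RNase H1. This unequal spread was not simulated. The smallest p of an exact permutation test in this design is 0.333. The number of arrays limits the precision.

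The members and lists were chosen with earlier results of these data known. The rule for naming gives values by array for members past the threshold, the 4 iron-using oxygenases, the 5 largest differences in each direction, and the regulators and uptake genes; of related lists, it names those past the threshold or else the 2 with the smallest p. Other members were added for completeness. Alternatives were scaling (quantile, median, cyclic loess), the dim filter, pseudocounts of 16 and 64, the variance model, a replicate block, an adjusted p under 0.10 and each array left out. No sequences are shown, since none were used here.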

Additional observations from a re-analysis of the deposited data

How the results depend on the processing

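For lower members the count was 1 and became 0 after quantile, median or cyclic loess scaling, with a pseudocount of 64, without an intensity trend, with robust eBayes and with a mean signal above 100, 6 at an adjusted p under 0.10 (ERG10, ERG13, MVD1, ERG20, ERG24 and ERG5), and between 0 and 16 when an array was left out. For higher members it was 0 and lay between 0 and 6 when an array was left out. The upper ends come from leaving out array 1 labelled RNase H1 (6 higher, 16 lower), and without array 2 there were 3 higher and 12 lower; such fits take their spread from the controls alone, which were closer together. Related lists gave 1 higher and 0 lower call: 0 higher without an intensity trend, 2 higher and 1 lower at an adjusted p under 0.10, and between 1 and 14 higher and between 0 and 26 lower when an array was left out. Over all probe sets the counts were 62 higher and 19 lower. The higher count was 41 after median scaling, 7 without an intensity trend, 192 at an adjusted p under 0.10 and between 54 and 1184 without an array; the lower count was 12 with a pseudocount of 64, 0 without an intensity trend, 12 with robust eBayes, 173 at an adjusted p under 0.10 and between 10 and 1604 without an array. The mevalonate median ranged from −0.52 to −0.31 and the late median from −0.34 to −0.24 without an array, and the late median was −0.24 after cyclic loess scaling. Except where the construction of a setting shows it, the cause was not tested.

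Equal replicate numbers are not stated to mark a shared batch, and deviations of same-numbered arrays correlated at −0.30 across probe sets. With the replicate block, 0 members passed as lower (ERG13, adjusted p = 0.0898). A crossed block, added with the minimum mean signal after seeing the data, called 7 members lower and 0 higher, 6 related probe sets higher and 5 lower, and 483 of all probe sets higher and 454 lower.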

Other observations

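PRY1 has 2 relatives on the array, which were singled out after their values were seen. PRY3 lies next to PRY1 in the genome and had signals of 940 and 942 in the controls and of 1871 and 1424 in the arrays labelled RNase H1 (log2 difference 0.79 ± 0.18, adjusted p = 0.103). PRY2, which like PRY1 exports sterols, had 2880 and 2814 against 1937 and 1622 (−0.68 ± 0.13, adjusted p = 0.0857). Of these 3 genes, PRY1 passed the test.

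No member has another member as its direct neighbour in the R64 gene order. Of 58 neighbouring genes with a tested probe set, 3 passed the threshold, against 1.48% of all tested probe sets. Whether a place beside a member bears on this count was not tested. PRM1, a membrane fusion gene of mating, lies beside ERG24 and was lower by far more than it (log2 −3.03 ± 0.39, adjusted p = 0.0493). AGA1, an anchor of the mating agglutinin, lies beside MVD1 and was at −2.60 ± 0.29 (adjusted p = 0.0397). PCL5, a cyclin gene, lies beside ERG7 and was at 1.30 ± 0.10 (adjusted p = 0.0191). These neighbours too were looked at after the values of the members were known.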
